A study of Rattus norvegicus and Mus musculus with 14 samples.

Results

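Ribosomal protein genes were followed through 14 cDNA arrays of cortical neurons and cortex. Members were chosen by gene symbol alone: 7 genes (Rpl10, Rpl13, Rpl27, Rplp0, Rps19, Rps6 and Rpsa), read by 8 of the 384 probes that carry a single gene symbol, which name 342 genes in all. Rpsa had 2 probes, here called by their numbers on the array, 213 and 660, and each other gene had 1. No other probe with a single symbol names a cytoplasmic ribosomal protein, so these genes stand for a small share of the ribosome. Probes with several symbols (6) or none (762) were not searched.

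The ribosome reads messenger RNA into protein. Its small subunit holds the message and decodes it, and its large subunit joins the amino acids. Neurons spend much of their energy on translation, and excitatory input is known to change it through the ERK and mTORC1 kinase pathways. Messages of ribosomal proteins are a known target of that control: in mammals most begin with a C followed by an unbroken run of pyrimidines, the 5′ terminal oligopyrimidine (TOP) tract, which lets mTORC1 raise or lower their translation together without a change in message level.

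In 12 samples the RNA came from embryonic rat cortical neuron cultures, arranged in a MEK set and a NOS set. Each set had experiments 1 and 2 with 1 array per treatment. In the MEK set the treatments were NMDA with PD98059, NMDA alone and a control that the labels call CSS. In the NOS set they were NMDA with nitroarginine, NMDA alone and the same control. NMDA activates a class of glutamate receptor that admits calcium, PD98059 blocks MEK, the kinase that activates ERK, and nitroarginine blocks nitric oxide synthases. The 2 mouse samples were brain cortex of an adult C57BL knockout lacking neuronal nitric oxide synthase (nNOS) and of its adult wild-type littermate. Doses, exposure times, the knockout allele and the ages in days are not given in the sources used here, and the labels do not say whether paired experiments used separate cultures. The p-values therefore cover the spread from array to array, part or all of which may be technical. The main fit used 1 spread per probe over both sets and no term for experiment. Its SEs and p-values thus also hold the shift between experiments 1 and 2. With experiment as a block, the SE of NMDA minus control for Rplp0 in the NOS set was 0.21, against 0.77 without it.

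Each value is a Z-score within its array: 0 is the mean of the 1152 probes and 1 unit is about 1 SD over them. A difference of Z-scores is not a fold change, and a change shared by all probes is not visible. Levels of different probes are not compared. The column of the MEK experiment 1 control was moved down by 1 row: its correlation with the median of the other arrays was 0.823 there and 0.103 as deposited. Even so it stood apart, with r = 0.858 to 0.868 across probes with the other MEK set arrays, which had 0.971 to 0.995 among themselves. NOS experiment 2 also stood apart, with r = 0.454 to 0.617 with NOS experiment 1. The fitted NMDA differences of the members are also given without these arrays. Neuronal markers were measured by 4 probes (Uchl1 on 2, Nefl and Stmn2), astrocyte markers by 3 (Gfap on 2 and Glul) and microglial markers by 1 (Csf1r). Both Uchl1 probes were above their array's mean in the 9 cultures outside NOS experiment 2 (0.57 to 1.41 and 0.23 to 1.51) and in the knockout (0.67 and 1.51) and wild-type cortex (0.25 and 1.32). Nefl was below it (-1.56 to -0.86 in those cultures). No probe carries the symbol Nos1, so the knockout cannot be checked on these arrays.

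The sequences around the transcription start are shown for the TOP tract, the feature that such genes are known for. Of the 7 genes, 6 have a start in the RefSeq promoter table for rat (build GRCr8). Each window below holds 20 bases before the start and 20 bases from it, and the capitals mark the longest run of at least 5 pyrimidines (C or T) that opens with C.
Rpl10, chrX:157205830-157205869, plus strand: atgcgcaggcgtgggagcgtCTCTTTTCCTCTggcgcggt
Rpl13, chr19:68062494-68062533, plus strand: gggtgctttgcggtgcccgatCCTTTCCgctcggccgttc
Rplp0, chr12:46718371-46718410, minus strand: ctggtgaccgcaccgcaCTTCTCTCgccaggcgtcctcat
Rps19, chr1:89608668-89608707, plus strand: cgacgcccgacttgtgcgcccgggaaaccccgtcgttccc
Rps6, chr5:106420521-106420560, minus strand: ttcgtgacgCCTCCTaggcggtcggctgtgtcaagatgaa
Rpsa, chr8:128728859-128728898, plus strand: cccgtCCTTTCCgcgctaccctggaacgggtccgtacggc
In Rpl10 the run of 12 pyrimidines opens on the annotated first base itself. The run of 8 in Rplp0 opens 3 bases before it, and the run of 7 in Rpl13 opens 1 base after it. The runs of Rps6 (6 bases) and Rpsa (7 bases) lie wholly before the annotated start, and Rps19 has none in this window. For Rpl13, Rps19 and Rpsa the annotated gene begins upstream of the window, so the start shown is not the only one annotated. Only the start shown was searched. Such a run was present in 5 of these 6 genes and in 43.9% of the 33469 promoter windows of the table, read on the transcribed strand. The match describes the letters and not a site in use. These arrays measured message level, which is not the step that a TOP tract is known to control.

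**Figure D1:**
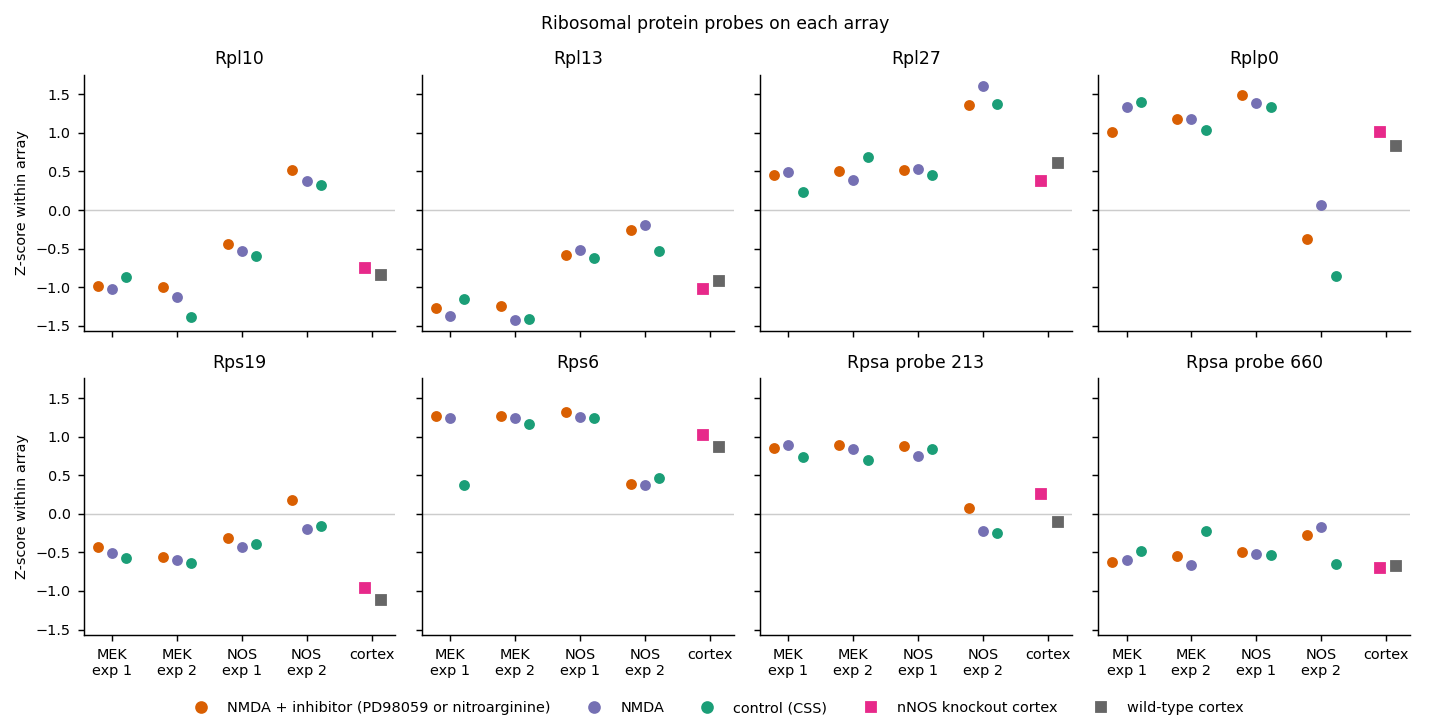
Z-score within the array (vertical axis) of each ribosomal protein probe on all 14 arrays, by experiment (horizontal axis). Circles are rat cultures coloured by treatment and squares are mouse cortex. Treatments lie close together within most experiments, while the 3 arrays of NOS experiment 2 lie away from the other 9 cultures for Rpl10, Rpl27, Rplp0, Rps19 and Rpsa probe 213.

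The large subunit was represented by 4 genes. Rpl10 encodes a protein near the catalytic centre that, in yeast and human cells, is among the last to be added to the subunit. In MEK experiment 1 its Z-score was -0.99 under NMDA with PD98059, -1.02 under NMDA and -0.87 under control. MEK experiment 2 gave -1.0 under NMDA with PD98059, -1.13 under NMDA and -1.39 under control, and the control held both the highest and the lowest value of the set. In NOS experiment 1 it was -0.45 under NMDA with nitroarginine, -0.53 under NMDA and -0.60 under control. Experiment 2 of that set read 0.52 under NMDA with nitroarginine, 0.38 under NMDA and 0.32 under control. Within both NOS experiments the order was nitroarginine, NMDA, control, but the steps within an experiment were far smaller than the gap between experiments. Group means were -1.0 ± 0.0098 under PD98059, -1.07 ± 0.076 under NMDA and -1.13 ± 0.37 under control in the MEK set, and 0.037 ± 0.68 under nitroarginine, -0.075 ± 0.64 under NMDA and -0.14 ± 0.65 under control in the NOS set (SD, n = 2 each). From high to low the order was inhibitor, NMDA, control in each set. The PD98059 and NMDA means differed by slightly more than the larger of their SDs, and no other neighbours in the orders did. Here and for the genes below, the SD is the spread between experiments 1 and 2. Setting means against it leaves out the pairing by experiment. In the NOS set it holds the shift of experiment 2, so it cannot show whether treatments differed within an experiment.

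Rpl13, another large subunit protein, was below its array's mean on every array. Its Z-score in MEK experiment 1 was -1.27 under NMDA with PD98059, -1.37 under NMDA and -1.16 under control. For MEK experiment 2 it was -1.24 under NMDA with PD98059, -1.42 under NMDA and -1.42 under control. PD98059 was thus slightly above NMDA in both experiments, as it was for 24.4% of all probes. NOS experiment 1 gave -0.58 under NMDA with nitroarginine, -0.52 under NMDA and -0.63 under control. NOS experiment 2 gave -0.26 under NMDA with nitroarginine, -0.19 under NMDA and -0.53 under control. Here NMDA was above control in both experiments. Every NOS set array, experiment 1 included, was above every MEK set array, as it was for Rpl10. Over the pairs of experiments, means were -1.26 ± 0.018 under PD98059, -1.40 ± 0.038 under NMDA and -1.29 ± 0.18 under control in the MEK set, and -0.42 ± 0.22 under nitroarginine, -0.36 ± 0.23 under NMDA and -0.58 ± 0.071 under control in the NOS set (SD, n = 2 each). The order from high to low was PD98059, control, NMDA in the MEK set and NMDA, nitroarginine, control in the NOS set. No neighbours in either order differed beyond the larger SD, but the PD98059 and NMDA means, at the ends of the MEK set order, did.

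Rpl27 is a large subunit protein as well. In MEK experiment 1 it read 0.46 under NMDA with PD98059, 0.49 under NMDA and 0.24 under control. In MEK experiment 2 the order was turned, with 0.50 under NMDA with PD98059, 0.39 under NMDA and 0.69 under control. The control was thus the lowest array of 1 experiment and the highest of the other. NOS experiment 1 had 0.52 under NMDA with nitroarginine, 0.53 under NMDA and 0.45 under control, which were close together. NOS experiment 2 had 1.36 under NMDA with nitroarginine, 1.61 under NMDA and 1.37 under control, which were the 3 highest values of the 12 cultures. Group means were 0.48 ± 0.031 under PD98059, 0.44 ± 0.069 under NMDA and 0.47 ± 0.32 under control in the MEK set, and 0.94 ± 0.60 under nitroarginine, 1.07 ± 0.76 under NMDA and 0.91 ± 0.65 under control in the NOS set (SD, n = 2 each). PD98059 was highest and NMDA lowest in the MEK set, and NMDA was highest and control lowest in the NOS set, with no neighbours apart by more than the larger SD.

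Rplp0 forms the base of the stalk, the part of the large subunit that receives elongation factors, and it is widely used as a reference gene in expression studies. Its values in MEK experiment 1 were 1.01 under NMDA with PD98059, 1.34 under NMDA and 1.40 under control. MEK experiment 2 had 1.18 under NMDA with PD98059, 1.18 under NMDA and 1.03 under control. NOS experiment 1 had 1.49 under NMDA with nitroarginine, 1.39 under NMDA and 1.33 under control. All 9 of these arrays were at or above 1.01. In NOS experiment 2 it read -0.38 under NMDA with nitroarginine, 0.066 under NMDA and -0.86 under control, so the spread over treatments was wider in that experiment than over the other 9 arrays together. Its group means were 1.10 ± 0.12 under PD98059, 1.26 ± 0.11 under NMDA and 1.22 ± 0.26 under control in the MEK set, and 0.55 ± 1.32 under nitroarginine, 0.73 ± 0.94 under NMDA and 0.24 ± 1.55 under control in the NOS set (SD, n = 2 each). From high to low these ran NMDA, control, PD98059 in the MEK set and NMDA, nitroarginine, control in the NOS set. No neighbours were apart by more than their larger SD, which in the NOS set holds the shift of experiment 2.

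The small subunit was represented by 3 genes. Rps19 is needed to mature the small subunit's RNA, and its loss of function causes Diamond-Blackfan anaemia in humans. MEK experiment 1 gave -0.43 under NMDA with PD98059, -0.51 under NMDA and -0.57 under control. MEK experiment 2 gave -0.56 under NMDA with PD98059, -0.59 under NMDA and -0.64 under control. The order of treatments was the same in both, PD98059 first and control last. In the NOS set, experiment 1 read -0.31 under NMDA with nitroarginine, -0.44 under NMDA and -0.39 under control. Experiment 2 read 0.18 under NMDA with nitroarginine, -0.20 under NMDA and -0.16 under control, with nitroarginine the highest array in each. The means were -0.50 ± 0.094 under PD98059, -0.55 ± 0.059 under NMDA and -0.60 ± 0.047 under control in the MEK set, and -0.066 ± 0.35 under nitroarginine, -0.32 ± 0.17 under NMDA and -0.27 ± 0.16 under control in the NOS set (SD, n = 2 each). The MEK set order was PD98059, NMDA, control and the NOS set order nitroarginine, control, NMDA. No neighbours differed beyond their larger SD.

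Rps6 is the classical substrate of the S6 kinases downstream of mTORC1, and the RSK kinases downstream of ERK phosphorylate it too. In MEK experiment 1 it read 1.27 under NMDA with PD98059, 1.24 under NMDA and 0.38 under control. In MEK experiment 2 it read 1.27 under NMDA with PD98059, 1.25 under NMDA and 1.17 under control. The low value is that of the moved column. NOS experiment 1 had 1.32 under NMDA with nitroarginine, 1.25 under NMDA and 1.24 under control. NOS experiment 2 had 0.39 under NMDA with nitroarginine, 0.38 under NMDA and 0.46 under control. Without the moved control and NOS experiment 2, the other 8 cultures all lay between 1.17 and 1.32. Group means were 1.27 ± 0.0001 under PD98059, 1.24 ± 0.0038 under NMDA and 0.78 ± 0.56 under control in the MEK set, and 0.85 ± 0.66 under nitroarginine, 0.81 ± 0.62 under NMDA and 0.85 ± 0.55 under control in the NOS set (SD, n = 2 each). The PD98059 mean was above the NMDA mean by more than either SD, though by only 0.027 Z units, and no other neighbours differed beyond their larger SD. The MEK experiment 1 arrays carry values of 2 decimals, so SDs of 0.0001 and 0.0038 are finer than those values can show. In the main fit the SE of this difference was 0.44.

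Rpsa is a small subunit protein that has also been described as a laminin receptor at the cell surface. Both of its probes are annotated to the same RefSeq transcript record. Probe 213 read 0.86 under NMDA with PD98059, 0.90 under NMDA and 0.74 under control in MEK experiment 1. It read 0.89 under NMDA with PD98059, 0.85 under NMDA and 0.70 under control in MEK experiment 2. These 6 arrays overlapped with NOS experiment 1, at 0.88 under NMDA with nitroarginine, 0.75 under NMDA and 0.84 under control. NOS experiment 2 was lower on all 3 arrays, at 0.079 under NMDA with nitroarginine, -0.22 under NMDA and -0.24 under control. Probe 660 read -0.62 under NMDA with PD98059, -0.60 under NMDA and -0.48 under control in MEK experiment 1. In MEK experiment 2 it read -0.54 under NMDA with PD98059, -0.67 under NMDA and -0.22 under control. NMDA was below control in both of these experiments. NOS experiment 1 gave -0.49 under NMDA with nitroarginine, -0.52 under NMDA and -0.54 under control and was flat. NOS experiment 2 gave -0.28 under NMDA with nitroarginine, -0.17 under NMDA and -0.64 under control, with NMDA the highest array. Thus the 3 low values of probe 213 in NOS experiment 2 had no counterpart on probe 660, although both are annotated to 1 gene.

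For probe 213 the means were 0.87 ± 0.021 under PD98059, 0.87 ± 0.039 under NMDA and 0.72 ± 0.03 under control in the MEK set, and 0.48 ± 0.57 under nitroarginine, 0.26 ± 0.69 under NMDA and 0.30 ± 0.76 under control in the NOS set (SD, n = 2 each). In the MEK set NMDA was above control by more than either SD, while no neighbours in the NOS set order, which was nitroarginine, control, NMDA, differed by more than their larger SD. For probe 660 they were -0.58 ± 0.056 under PD98059, -0.63 ± 0.048 under NMDA and -0.35 ± 0.19 under control in the MEK set, and -0.38 ± 0.15 under nitroarginine, -0.34 ± 0.24 under NMDA and -0.59 ± 0.077 under control in the NOS set (SD, n = 2 each). PD98059 was below control in the MEK set and nitroarginine above control in the NOS set, each by more than either SD. NMDA was next to the inhibitor in both orders, within the larger SD, lowest in the MEK set and highest in the NOS set.

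The first comparison asked whether NMDA changed the messages of ribosomal proteins. No member passed the test, and members moved in both directions. In the MEK set, NMDA minus control was 0.47 Z units for Rps6 (SE 0.44), 0.15 for Rpsa probe 213 (SE 0.43) and -0.28 for Rpsa probe 660 (SE 0.23; limma, adjusted p = 0.998 for each, n = 2 arrays per group). The other 5 probes were between -0.11 (Rpl13) and 0.057 (Rpl10). In all, 0 of 8 member probes were called, against 0% of 1152 probes, and 0 of 8 had an unadjusted p under 0.05, against 16 of 1152. The median over members was 0.047, and over all probes 0.0045. In bulk RNA, fewer cells of a type and less RNA per cell cannot be told apart.

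Within the MEK set, 5 of 8 member probes kept their sign between experiments and 3 did not. Rps6 was 0.86 in experiment 1 and 0.072 in experiment 2. The first rests on the moved control column, and the 24 probes nearest to Rps6 in the probe order had a median of 0.32 there. Without that array, where 1 control array is left, the set's difference was 0.07 for Rps6, 0.32 for Rpl10, 0.23 for Rplp0 and -0.25 for Rpl27, and Rpl13 took the other sign at 0.02. Rpsa probe 660 was then at -0.42, Rpsa probe 213 at 0.17 and Rps19 at 0.085. With all arrays kept and a running median along the probe order removed, the set's difference rose to 0.61 for Rps6 and 0.29 for Rplp0. Rpl13 then took the other sign at 0.27, and the other probes were between -0.24 (Rpsa probe 660) and 0.13 (Rpsa probe 213). For Rpl10 the experiments gave -0.15 and 0.26, and for Rpl27 0.25 and -0.30, with opposite signs. Rpsa probe 213 gave 0.16 and 0.15, and Rpsa probe 660 -0.12 and -0.45, each with 1 sign. In MEK experiment 2, Rpsa probe 660 stood at percentile 5.7 of all probes while its 24 neighbours had a median of -0.032. Higher values in both experiments were seen for 3 of 8 member probes, against 29.3% of all probes, and lower values for 2 of 8, against 24.4%. With experiment as a block, the SE of Rps6 was 0.20 (unadjusted p = 0.0421, limma adjusted p = 0.342), and 0 probes were called, with 166 of 1152 at an unadjusted p under 0.05.

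In the NOS set, NMDA minus control was 0.49 for Rplp0 (SE 0.77), 0.25 for Rpsa probe 660 (SE 0.23) and 0.22 for Rpl13 (SE 0.23; limma, adjusted p = 1.0 for each, n = 2). Again 0 of 8 member probes were called, against 0% of all probes, and 0 of 8 had an unadjusted p under 0.05, against 2 of 1152. Higher values in both experiments were seen for 5 of 8 (Rpl10, Rpl13, Rpl27, Rplp0 and Rpsa probe 660), against 26.4% of all probes. Lower values in both were seen for 1 of 8 (Rps19), against 23.8%. The 5 share 1 control array per experiment, so they are not independent.

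Nearly all of the Rplp0 difference came from experiment 2, at 0.92 against 0.061 in experiment 1. It stood at percentile 99.7 of all probes in experiment 2. Its 24 neighbours in the probe order also shifted, with a median of 0.60, and so did those of Rpsa probe 660 (member 0.47, neighbours 0.31) and Rpl13 (member 0.34, neighbours 0.24); these are probes 729, 660 and 667 of the array. With a running median along the probe order removed, the set's difference was 0.22 for Rplp0, 0.12 for Rpsa probe 660 and 0.11 for Rpl13. For Rps6 it was 0.35 in that setting, against -0.039 in the main fit. The part of this local shift in the NMDA values was not otherwise tested. Without experiment 2, the differences of the 8 probes lay between -0.089 (Rpsa probe 213) and 0.10 (Rpl13), the values of experiment 1. With the block, Rplp0 had an unadjusted p of 0.0435 (limma adjusted p = 0.688), where 57 of 1152 probes were under 0.05.

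**Figure D2:**
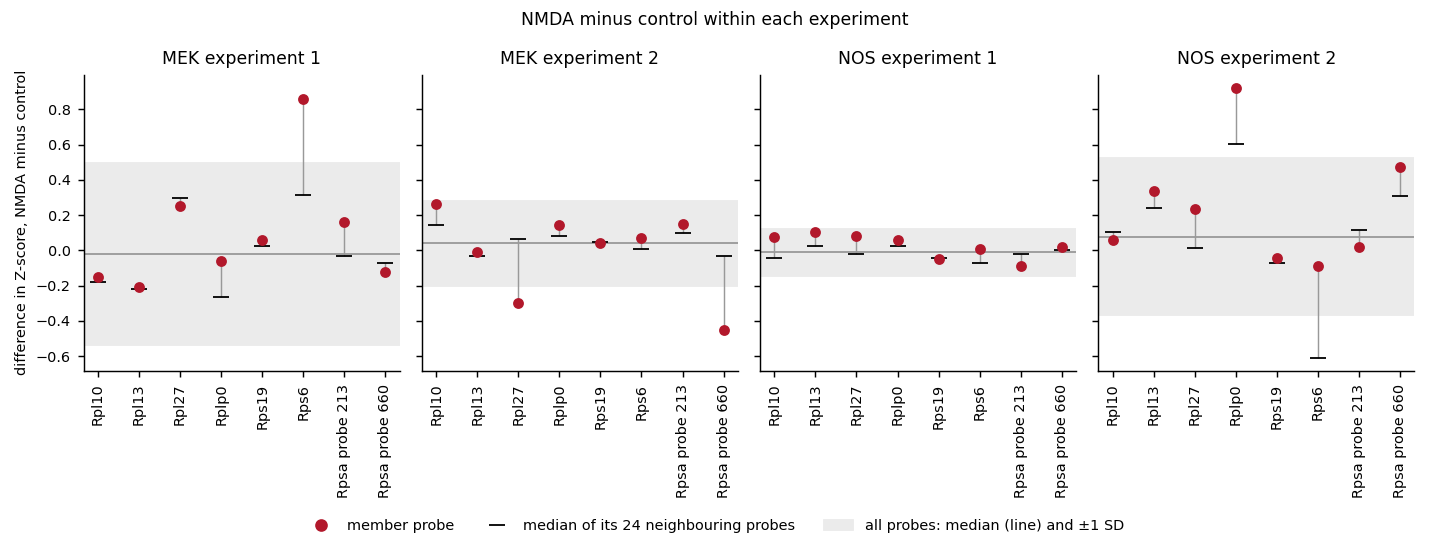
Difference in Z-score, NMDA minus control (vertical axis), for each ribosomal protein probe (horizontal axis) in each of 4 experiments. Red points are the members, black dashes the median of the 24 probes nearest in the probe order, and the grey band the median ± 1 SD of all probes; Rps6 in MEK experiment 1 (0.86) and Rplp0 in NOS experiment 2 (0.92) lie above the band, and Rpl27 and Rpsa probe 660 in MEK experiment 2 below it.

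Over both sets, NMDA minus control was highest for Rplp0 at 0.27 (SE 0.55) and Rps6 at 0.21 (SE 0.31), and lowest for Rpsa probe 660 at -0.02 (SE 0.16; limma, adjusted p = 1.0 for each, n = 4 arrays per treatment). No member was called (0 of 8, against 0% of all probes; 0 of 8 at an unadjusted p under 0.05, against 11 of 1152). No member was higher in all 4 experiments (0 of 8, against 10.2% of all probes) and none was lower in all 4 (0 of 8, against 4.6%). The difference was positive for 7 of 8 member probes, against 577 of all 1152 probes. These 7 share control arrays, so they are not independent. The median over members was 0.060 and that over all probes 0.0004. Without NOS experiment 2, Rplp0 was at 0.052, Rpsa probe 660 at -0.13 and Rpl13, with the other sign, at -0.0022. Without the moved control, Rps6 was at 0.015, Rpl10 at 0.19 and Rpl27, with the other sign, at -0.047. With all arrays and the running median removed, Rps6 was at 0.48, Rplp0 at 0.26 and Rpl13 at 0.19.

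Whether NMDA acted differently on the members in the NOS and MEK sets was tested as an interaction. NOS minus MEK was 0.53 for Rpsa probe 660 (SE 0.32), -0.51 for Rps6 (SE 0.62), 0.45 for Rplp0 (SE 1.09) and 0.33 for Rpl13 (SE 0.32). None passed (limma, adjusted p = 0.999 for each; 0 of 8 called, against 0% of all probes, with 0 of 8 and 4 of 1152 at an unadjusted p under 0.05). With the block, Rpsa probe 660 had an unadjusted p of 0.0435 (limma adjusted p = 0.555), where 99 of 1152 probes were under 0.05. It was the member whose NMDA difference turned most between the sets, lower in both MEK experiments and higher in both NOS experiments, and its interaction was 0.30 without NOS experiment 2 and 0.66 without the moved control. Without NOS experiment 2 the interaction of Rplp0 was 0.018, that of Rpl13 0.21 and that of Rps6 -0.46. Without the moved control it was 0.26 for Rplp0, 0.20 for Rpl13, -0.11 for Rps6 and 0.41 for Rpl27, which was at 0.18 with all arrays, while Rpl10 took the other sign at -0.25.

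PD98059 was compared with NMDA alone to ask what blocking MEK did to stimulated cultures. Differences were small. Rpl13 was at 0.14 (SE 0.23), with 0.10 in experiment 1 and 0.18 in experiment 2, and in experiment 2 it stood at percentile 97.2 of all probes. Rplp0 was at -0.16 (SE 0.77), which came from experiment 1 (-0.33, percentile 4.7) and not experiment 2 (0.0052). Rps6, whose protein lies downstream of ERK through RSK, had 0.03 and 0.025. The remaining probes were between 0.002 (Rpsa probe 213) and 0.077 (Rpl10). No member passed (limma, adjusted p = 1.0 for each, n = 2), with 0 of 8 called, against 0% of all probes, and 0 of 8 under an unadjusted p of 0.05, against 0 of 1152 without the block and 5 with it. Higher values in both experiments were seen for 4 of 8 member probes (Rpl10, Rpl13, Rps19 and Rps6), against 24.4% of all probes. No member was lower in both (0 of 8, against 12.5%). In experiment 2 all 8 were higher, with a median of 0.078, where 52.6% of all probes were higher and their median was 0.0046. Experiment 1 had 4 of 8 higher, with a median of 0.005.

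Nitroarginine was compared with NMDA alone to ask what blocking nitric oxide synthase did. Rps19 was at 0.25 (SE 0.24), with 0.12 in experiment 1 and 0.38 in experiment 2, while its neighbours had medians of -0.028 and -0.021. Rpsa probe 213 was at 0.22 (SE 0.43), with 0.13 and 0.30, and its neighbours had -0.017 and -0.095. Its companion, probe 660, had 0.023 and -0.10. Rplp0 was at -0.18 (SE 0.77), with 0.092 and -0.45, and in experiment 2 its neighbours had -0.38. None passed (limma, adjusted p = 0.998 for each, n = 2), with 0 of 8 called, against 0% of all probes, and 0 of 8 under an unadjusted p of 0.05, against 1 of 1152 without the block and 42 with it. In both experiments 4 of 8 were higher (Rpl10, Rps19, Rps6 and Rpsa probe 213), against 29.5% of all probes, and 2 of 8 lower (Rpl13 and Rpl27), against 31.4%. For Rps6 these differences were small, at 0.065 and 0.012. Without NOS experiment 2, Rps19 was at 0.12, Rpsa probe 213 at 0.13 and Rplp0, with the other sign, at 0.092. Each inhibitor was set against its own NMDA arrays, and the difference between inhibitors was not tested.

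Set against the control instead, cultures with NMDA and an inhibitor gave values that share those control arrays with the NMDA comparison. With PD98059, 3 of 8 member probes were higher than control in both MEK experiments (Rps19, Rps6 and Rpsa probe 213), against 28.6% of all probes, and 1 of 8 was lower in both (Rpsa probe 660), against 24.3%. The experiment 1 values rest on the moved control column. For Rps6 they were 0.89 in experiment 1, where its neighbours had 0.34, and 0.10 in experiment 2, which is the value without that column. Rps19 was at 0.14 and 0.073. Rpsa probe 213 was at 0.12 and 0.19, and Rpsa probe 660 at -0.14 and -0.32. With nitroarginine, 6 of 8 were higher than control in both NOS experiments (Rpl10, Rpl13, Rplp0, Rps19 and both Rpsa probes), against 30.9%, and 0 of 8 lower in both, against 18.9%. The largest of these were in experiment 2, where Rplp0 was at 0.47, Rpsa probe 660 at 0.37 and Rps19 at 0.34. In experiment 1 all 8 were higher, with a median of 0.070, where 56.8% of all probes were higher and their median was 0.025.

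**Figure D3:**
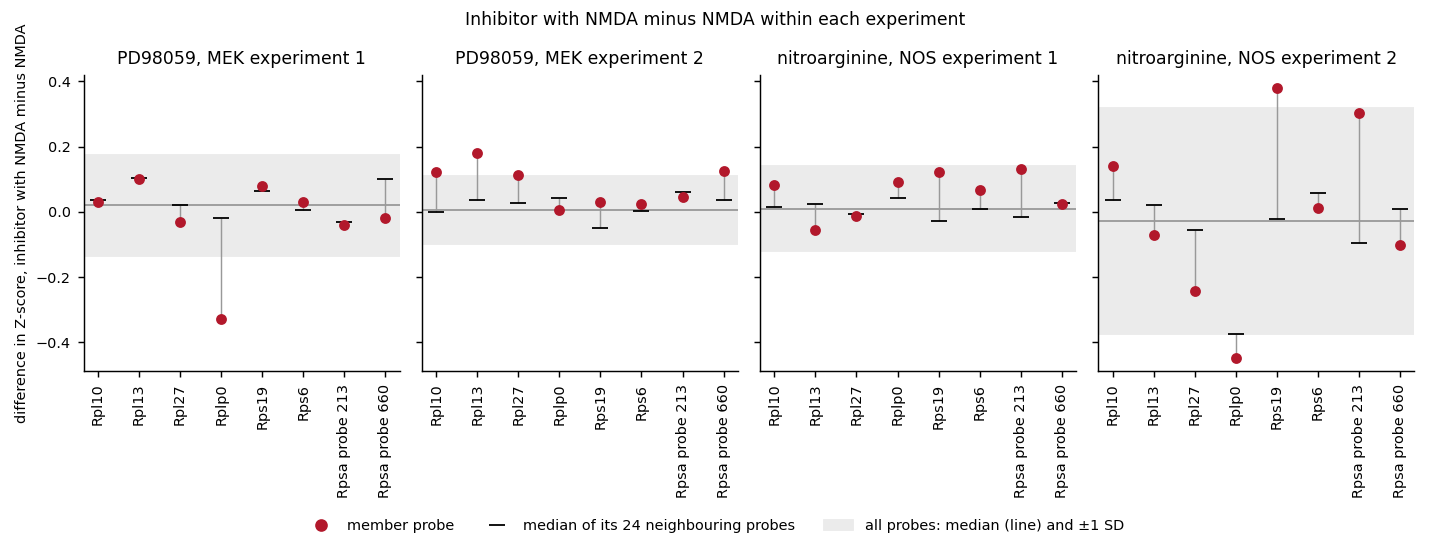
Difference in Z-score, NMDA with inhibitor minus NMDA alone (vertical axis), for each ribosomal protein probe (horizontal axis), PD98059 in the MEK set and nitroarginine in the NOS set. Red points are the members, black dashes the median of the 24 nearest probes and the grey band the median ± 1 SD of all probes; in MEK experiment 2 all 8 members are above 0, and Rplp0 is at -0.33 in MEK experiment 1 and -0.45 in NOS experiment 2.

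NOS experiment 2 stood apart for the members as well. On its 3 arrays 5 of 8 probes did not overlap with the other 9 cultures, against 60.2% of all probes: 3 above (Rpl10, Rpl27 and Rps19), against 34.8%, and 2 below (Rplp0 and Rpsa probe 213), against 25.5%. The share over all probes was near that of the members. Of the 8 cell type marker probes, 5 did not overlap with the other 9 cultures either. Below them were 1 Uchl1 probe at -0.51 to 0.15 (0.57 to 1.41 in the other 9) and Glul at -0.42 to -0.13 (0.83 to 1.31). Above them were the other Uchl1 probe at 1.89 to 2.21 (0.23 to 1.51), 1 Gfap probe at -0.047 to 0.41 (-1.58 to -0.49) and Csf1r at 0.84 to 1.33 (0.28 to 0.57). The other 3 overlapped: Nefl at -1.74 to -1.50 (-1.56 to -0.86), Stmn2 at -0.28 to 0.52 (-0.43 to 0.023) and the other Gfap probe at -0.22 to 0.49 (-0.38 to -0.0016). The part of these markers in the members' values was not tested. Experiment 2 minus experiment 1 was -1.87, -1.33 and -2.19 for Rplp0 under nitroarginine, NMDA and control, and its 24 neighbours had medians of -0.85, -0.34 and -0.87. For Rpl10 it was 0.97, 0.91 and 0.92. For Rps6 it was -0.93, -0.87 and -0.78 in the same order, with neighbours at 0.056, 0.0037 and 0.24. The typical probe moved by a median of 0.59 to 0.68 Z units in either direction. In the MEK set the same step was at most 0.17 in size for any member under NMDA or PD98059, where the typical probe moved by 0.067 and 0.077.

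The sets also differed without NOS experiment 2. NOS experiment 1 was above all 6 MEK set arrays for Rpl13, with a median of -0.58 against -1.32. It was likewise above for Rpl10, with -0.53 against -1.01. These were 2 of 8 member probes above and 0 of 8 below, against 25.5% and 20.1% of all probes, or 2 of 8 in either direction, against 45.5%. Set and any other difference between those experiments cannot be told apart. The other 6 probes overlapped between the sets, and the widest gap of their medians was 0.21 (Rplp0).

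The cortex of the nNOS knockout was set beside that of its wild-type littermate, with 1 array each and so no test. Rpsa probe 213 read 0.26 in the knockout and -0.10 in the wild type, a difference of 0.36 at percentile 97.6 of all probes. Probe 660 of the same gene read -0.70 in the knockout and -0.68 in the wild type, a difference of -0.024. The 2 probes of the gene therefore do not give 1 answer. Rplp0 was 1.01 in the knockout and 0.83 in the wild type, a difference of 0.19. Rps6 was 1.03 in the knockout and 0.87 in the wild type, a difference of 0.16. Rps19 was -0.97 in the knockout and -1.12 in the wild type, a difference of 0.15. These values lay within 1 SD of the differences over all probes. Rpl10 was -0.75 in the knockout and -0.85 in the wild type. Lower knockout values, besides that of Rpsa probe 660, were those of Rpl27 and Rpl13. Rpl27 was at 0.38 in the knockout and 0.61 in the wild type. Its difference of -0.23 stood at percentile 10.2 of all probes and lay beyond 1 SD. Rpl13 was at -1.02 in the knockout and -0.92 in the wild type. In all, 5 of 8 probes were higher in the knockout, against 50.6% of all probes, and the members' median difference was 0.13 where the SD over all probes was 0.199.

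**Figure D4:**
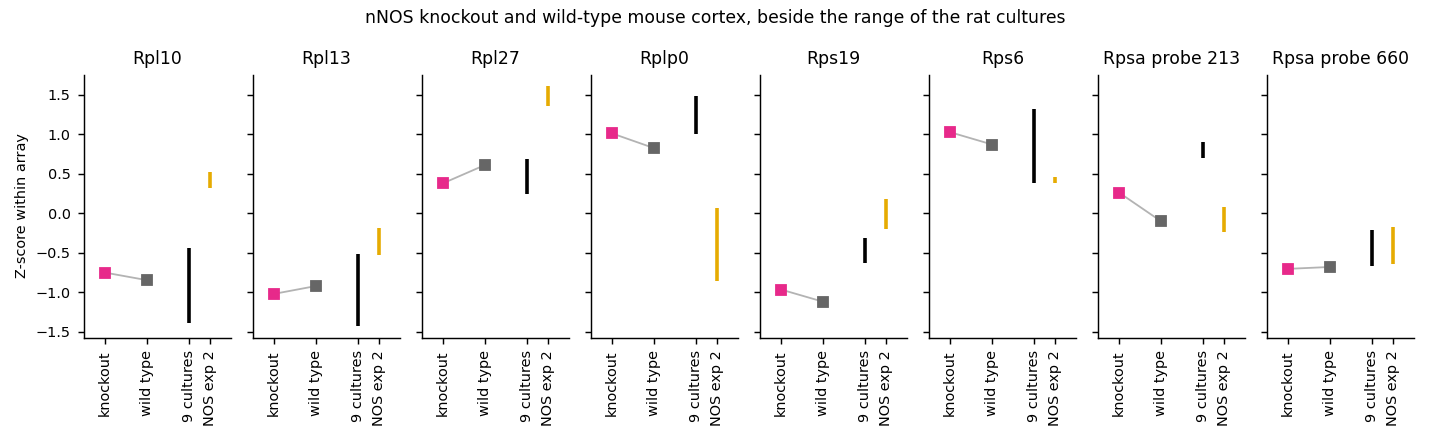
Z-score within the array (vertical axis) of each ribosomal protein probe in nNOS knockout and wild-type cortex (squares, 1 array each), beside the range over the 9 rat cultures outside NOS experiment 2 (black bar) and over the 3 arrays of NOS experiment 2 (yellow bar). Rps19 and Rpsa probe 660 are below every culture in both cortex arrays.

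Beside the cultures, adult cortex was lower for Rps19, at -0.97 in the knockout and -1.12 in the wild type, where the 12 cultures ran from -0.64 to 0.18 with a median of -0.43. Rpsa probe 660 was lower too, but its cortex values lay only just under the cultures' lowest value of -0.67. These 2 of 8 probes were below all 12 cultures, against 6.08% of all probes, and 0 of 8 were above them, against 6.78%. In either direction that was 2 of 8, against 12.9%. Rpsa probe 213 was below the 9 cultures outside NOS experiment 2, which ran from 0.70 to 0.90, and then 3 of 8 were below, against 18.8%, and 0 of 8 above, against 21.5%. In either direction that was 3 of 8, against 40.2%. Cell type markers differed both ways between cortex and those 9 cultures. Below the cultures in both cortex arrays were Stmn2 (-0.70 in knockout and -0.70 in wild type, against -0.43 to 0.023) and 1 Gfap probe (-0.89 and -0.93 in the same order, against -0.38 to -0.0016). Above them in both was Csf1r (0.85 in knockout and 1.0 in wild type, against 0.28 to 0.57). The other Gfap probe (-1.52 in knockout and -1.46 in wild type, against -1.58 to -0.49) and the second Uchl1 probe (1.51 and 1.32, against 0.23 to 1.51) lay within the range. For the remaining 3 the knockout lay within it and the wild type outside it: Nefl (-0.88 in knockout and -0.81 in wild type, against -1.56 to -0.86), Glul (0.84 and 0.74, against 0.83 to 1.31) and the first Uchl1 probe (0.67 and 0.25, against 0.57 to 1.41). Species, age, tissue and culture cannot be told apart in this comparison, and the part of cell type was not tested.

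Other genes of protein synthesis were taken from lists of the same pathway. For comparison, NMDA minus control over both sets was positive for 577 of all 1152 probes, with 0 called. Mitochondrial ribosomal proteins were measured by 4 probes (Mrpl10, Mrpl15, Mrpl37 and Mrps14), of which 0 passed under NMDA over both sets and 1 had a positive difference (median -0.14, limma, adjusted p = 1). Mrpl15, the farthest from 0, had NMDA minus control of -0.44 and -0.11 in the MEK experiments and 0.22 and -1.09 in the NOS experiments. Translation factors were measured by 12 probes of 6 genes, with 0 called and 9 positive (median 0.087). Eif4b, which helps initiation factors to unwind the message's 5′ end, was below control in all 4 experiments, at -0.96, -0.58, -0.17 and -0.056. Eef2, the translocation factor of elongation, was above control in all 4 on 1 of its 2 probes, at 0.74, 0.24, 0.022 and 0.24. Eif3a, a subunit of initiation factor 3, was above control in all 4, at 0.063 to 0.35. Eef1a1, the factor that brings aminoacyl-tRNA to the ribosome, had -0.24 and 0.21 in the MEK experiments and 0.10 and 0.69 in the NOS experiments on probe 739. Its other 4 probes were at 0.10, 0.084, -0.016 and -0.028 over both sets, where probe 739 was at 0.19. None of these passed.

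The mTORC1 list had 4 probes (Akt1s1 on 2, Rraga and Tsc2), with 0 called and 1 positive (median -0.24), against 577 of all 1152 probes positive. Akt1s1, which restrains mTORC1, was below control in both MEK experiments on both probes, at -0.44 and -0.79 on 1 and -0.43 and -0.78 on the other, the first of each pair against the moved control. In NOS experiments 1 and 2 the probes had 0.38 and -0.52, and 0.049 and -0.30, so that they were above control in experiment 1 and below it in experiment 2. Bop1, a factor of large subunit assembly and the 1 measured gene of ribosome biogenesis, was at -0.12 over both sets. Vars, the valyl-tRNA synthetase, was below control in all 4 experiments, from -0.97 to -0.26, and was not called (limma, adjusted p = 1, and 0.111 with the block). Larp1, whose protein binds the TOP tract, is outside those lists and was chosen after its values were seen. It was at -0.59 and -0.16 in the MEK experiments and -0.025 and 0.78 in the NOS experiments. Neuronal markers were higher under NMDA over both sets in 4 of 4 probes (median 0.40), 2 of them of Uchl1, with 0 called. Astrocyte markers were higher in 1 of 3 (median -0.027), and of all probes 577 of 1152 were higher. Their part in the members' values was not tested.

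Named probes with the most similar course over treatments were found after the mean of each experiment was taken from each probe. Over the 12 cultures, the mean of the 8 members went most with Cul5 (r = 0.96), Tmem130 (r = 0.95) and Tm9sf3 (r = 0.93), and over the 8 arrays outside NOS experiment 2 and the moved control with r = 0.92, 0.72 and 0.71 for those probes. For single members the nearest were Bsg to Rps6 (r = 0.99), Eef1a1 to Rplp0 (r = 0.94), Dctn4 to Rps19 (r = 0.93), Hspa8 to Rpl13 (r = 0.92), Akr1b1 to Rpsa probe 213 (r = 0.91), Zbtb2 to Rpl10 (r = 0.90), Dusp8 to Rpsa probe 660 (r = 0.89) and Ybx1 to Rpl27 (r = 0.86). Over those 8 arrays, r was 0.97 for Bsg, 0.63 for Eef1a1, 0.75 for Dctn4, 0.84 for Hspa8, 0.79 for Akr1b1, 0.93 for Zbtb2, 0.81 for Dusp8 and 0.80 for Ybx1. The mean of MEK experiment 1 was taken before arrays were left out, so it still holds the moved control. All r values over the 8 arrays therefore depend in part on that column, and its part was not tested. Several of these probes are close to the member in the probe order. Bsg is probe 953 and Rps6 probe 941, Eef1a1 is probe 739 and Rplp0 probe 729, and Dusp8 is probe 659, next to Rpsa probe 660. Cul5, Tmem130 and Tm9sf3 are probes 286, 275 and 276, which are close to each other in that order. Compared probes share arrays and, in these cases, a stretch of the probe order, so the r values are a description only.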

How the data were processed

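Arrays of 12 rat cultures and 2 mouse cortex samples were grouped from their titles. The authors deposited scores. Array means lay within 0.0001 of 0 and SDs at 0.857 to 0.999, as of Z-scores within an array. The sources used here do not give how they were made. Probes took their genes from the platform annotation (384 of 1152 with 1 symbol, 6 with several, 762 with none), updated through the rat gene table for 362. Scores were fitted as deposited with limma 3.58.1 in R 4.3.3, a design written for log or score values: 6 group means over 12 arrays, empirical Bayes, two-sided, Benjamini-Hochberg over 1152 probes, threshold 0.05. Moving the MEK experiment 1 control by 1 row left probe 1 without a value on that array. The fit was tested on simulated data. Members, lists and tests were chosen with earlier results of these data known. Every member probe is named; of each list, up to 4 probes are named, those with the largest absolute NMDA difference in the blocked fit. Experiment numbers pair the arrays by the labels: their deviations from group means went together in the NOS set (r = 0.874 to 0.930), less so in the MEK set (r = -0.145 to 0.073). The block changed no call. The number of arrays limits the precision. Python 3.11.15, numpy 2.4.6, pandas 2.3.3 and matplotlib 3.10.9 served the other steps. Alternatives were the replicate block, quantile and median scaling, trend and robust moderation, fewer arrays or probes, a running median over 25 probes removed, and the column as deposited. Blocks combined with left-out arrays were added after seeing the data.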

Additional observations from a re-analysis of the deposited data

Results flagged for a closer look

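In groups of 4 arrays of 1 treatment over both sets, 6 values of 16 groups lay farther from the others than Dixon's critical value, where chance flags about 1 in 20. All 6 are arrays of NOS experiment 2. Among NMDA arrays these were Rpl27 at 1.61, Rplp0 at 0.066, Rps6 at 0.38 and Rpsa probe 213 at -0.22. Among control arrays they were Rplp0 at -0.86 and Rpsa probe 213 at -0.24. In that experiment 60.2% of all probes did not overlap with the other 9 cultures.

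For 3 member probes NMDA minus control had 1 sign in both MEK experiments and the opposite sign in both NOS experiments. The share of all probes that did so was not counted, so the 3 are a description only. The interaction, NOS minus MEK, was 0.53 for Rpsa probe 660, 0.33 for Rpl13 and -0.10 for Rps19, and none passed (limma, adjusted p = 0.999 for each). For Rps19 the differences were 0.06 and 0.043 in the MEK experiments and -0.049 and -0.042 in the NOS experiments. For Rpl13 the MEK experiments gave -0.21, against the moved control, and -0.0069. Its MEK set difference took the other sign without that column (0.02) and with the running median along the probe order removed (0.27). In the latter setting the interaction was 0.36 for Rpsa probe 660, -0.15 for Rpl13 and 0.0007 for Rps19.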

How the results depend on the processing

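Limma called 0 of 1152 probes in each of the 6 comparisons under every alternative run that keeps all groups, and 0 to 1 when arrays were left out in turn. The single call came without MEK set control replicate 2, for NMDA in the MEK set, over both sets and in the interaction, where the moved column is the only MEK set control and is assumed to vary like the other groups. No member was called under any alternative (0 of 8), and members' adjusted p ran from 0.342 to 1. With the replicate block, which pairs arrays of 1 experiment, calls stayed at 0 and the SEs were smaller. The 48 of 48 member differences were the same by design, since each experiment holds every treatment of its set. Of 768 member differences under alternatives, 707 moved by less than the SD between replicates and 61 by more. In the knockout, with 1 array per genotype, the SD over all probes served instead. Many of the 707 could not move. The block, trend and robust moderation, fewer probes and the compared sets alone leave these differences as they are. Leaving out NOS experiment 2 does the same for the MEK set differences. In all, 116 took the other sign or fell to 0, none of them called. Other signs, with values of 0 counted among them, came for 9 of 56 values under quantile normalization, 10 of 56 under median centring and 14 of 56 with the running median removed. In the last setting Rpl27 and Rps19 were at 0 for NMDA in the MEK set and for PD98059, which is not a change of sign. Of settings that leave arrays out, the highest shares were 5 of 8 without nitroarginine replicate 1, 16 of 32 without NOS set NMDA replicate 2 and 11 of 24 without NOS set control replicate 1. In the knockout, 5 of 8 members were higher as deposited and under both scalings, and 4 of 8 with the running median removed. For comparisons over both sets, a fit to the compared arrays alone is the fit already given and was not run again. With 2 arrays per group, the number of arrays limits what could be called.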
